A study of Mus musculus with 6 samples.

Results

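The brown and beige adipocyte identity genes described here are Prdm16, Ebf2, Zic1, Tbx1, Cited1, Dio2, Kcnk3, Tmem26, Ucp2 and Ucp3. They were chosen by name, as genes known to mark or control heat-producing fat cells, with earlier results of these data known. All 10 were among the 17924 genes measured by RNA-seq in CTL and Nelfb-/- cells. Of the 10 genes, Kcnk3 was the only one past the threshold between the genotypes, with a level 14.5-fold lower in Nelfb-/- cells. Among all genes tested, 11.2% were past the threshold. Prdm16, Cited1 and Ucp2 had intervals around 0 and a direction that depended on 1 library, and the other 6 genes leaned lower (Ebf2, Zic1, Tbx1, Ucp3) or higher (Dio2, Tmem26) without passing.

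Dermal fibroblasts were taken from the dorsal skin of newborn (P0) mice and kept for 14 days in adipocyte differentiation medium. Nelfb-/- cells carried 2 floxed alleles of Nelfb, a subunit of the NELF complex that holds RNA polymerase II near the start of genes, together with a Pdgfra-Cre transgene (Nelfb fl/fl Pdgfra-Cre+). CTL cells carried the same Pdgfra-Cre transgene with Nelfb fl/wt or Nelfb wt/wt, and which of these made each library was not given. Each genotype had 3 libraries, from biological triplicates by the study's methods, and the number of pups behind a library was not given. The Cre is driven by Pdgfra, a gene of mesenchymal progenitors, and which cells of a culture kept Nelfb was not measured.

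Brown adipocytes and the beige adipocytes that arise within white fat burn fuel to make heat in their mitochondria. Their identity is set by transcription regulators such as PRDM16 and EBF2, which act with PPARG and C/EBP proteins on thermogenic genes, and the program is driven by beta-adrenergic signaling and by thyroid hormone, which DIO2 activates inside the cell. Dermal white adipose tissue is a white depot, in which such genes are read as a measure of thermogenic character.

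The 6 libraries held between 17.2 M and 29.4 M reads (M, 1e+06), so that 3 reads, taken as the floor of detection, were worth 0.102 to 0.175 CPM (reads of a gene per 1e+06 reads on the listed genes). Values of single libraries are given in the order of replicates 1, 2 and 3. Nelfb stood at 17.3, 19.6 and 22.3 CPM in the CTL libraries and at 5.50, 3.90 and 5.55 CPM in the Nelfb-/- libraries. Of the 10 mature adipocyte markers, which include Adipoq, Plin1 and Fabp4, all were measured in every library. Their summed level lay at 26632 to 44310 CPM in the CTL libraries and 18133 to 26462 CPM in the Nelfb-/- libraries. CTL replicate 3 and Nelfb-/- replicate 1 stood apart from the other libraries of their genotype. CTL replicate 3 correlated with CTL replicates 1 and 2 at Pearson r of 0.942 and 0.940 across genes, against 0.985 between those 2, and Nelfb-/- replicate 1 correlated with Nelfb-/- replicates 2 and 3 at 0.930 and 0.945, against 0.988 between those 2. Every identity gene is therefore given library by library, and its log2 fold change is also given without CTL replicate 3 and without Nelfb-/- replicate 1. In bulk RNA, fewer cells of a type and less RNA per cell cannot be told apart.

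Genotypes were compared with limma, a linear model fitted here to the log2 values of all 16252 genes that averaged 10 reads or more. A gene past the threshold had an adjusted p no higher than 0.05 and differed by 2-fold or more. All 10 identity genes had passed that filter. The log2 fold change (log2FC) is the mean of Nelfb-/- minus that of CTL, with its standard error (SE), on a scale of log2(reads at a common depth + 1), which understates the change of genes near the floor. Of the 10 genes, 1 was past the threshold, lower in Nelfb-/- cells. Among all genes tested 11.2% were past it, 3.64% lower and 7.58% higher. The 3 libraries of CTL all lay above the 3 of Nelfb-/- at Kcnk3, Tbx1 and Ucp3, against 16.1% of all genes tested, and the groups overlapped at the other 7. In either direction, 38.1% of all genes tested had groups that did not overlap. An unadjusted p under 0.05 was found at 7 of the 10, against 32.5% of all genes. The median log2FC was -0.50 over the 10 genes and 0.07 over all genes tested. The 10 genes were chosen with earlier results of these data known, so that these counts are not independent evidence of a direction. An exact two-sided permutation test of 3 against 3 libraries cannot give a p below 0.1.

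**Figure D1:**
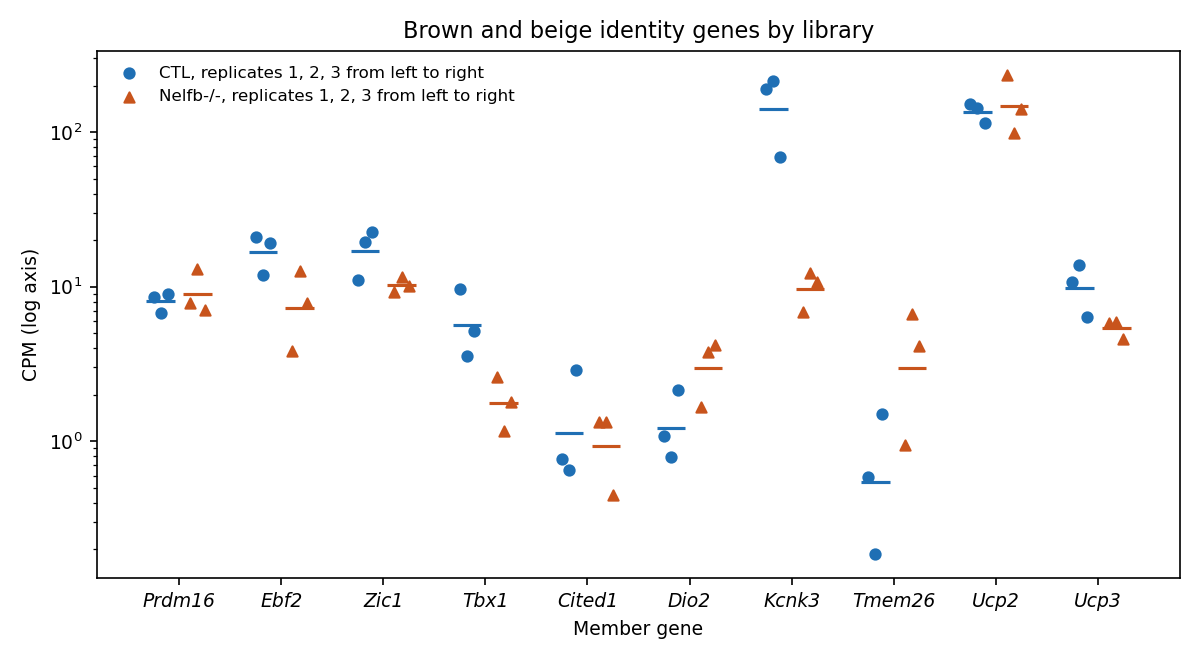
The plot shows the level of each identity gene in CPM on a log axis, with CTL libraries as circles, Nelfb-/- libraries as triangles, replicates 1 to 3 from left to right and short lines at the geometric mean of each group. Kcnk3 is the gene with the widest gap between the groups, from 68.6 CPM in the lowest CTL library to 12.3 CPM in the highest Nelfb-/- library.

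**Figure D2:**
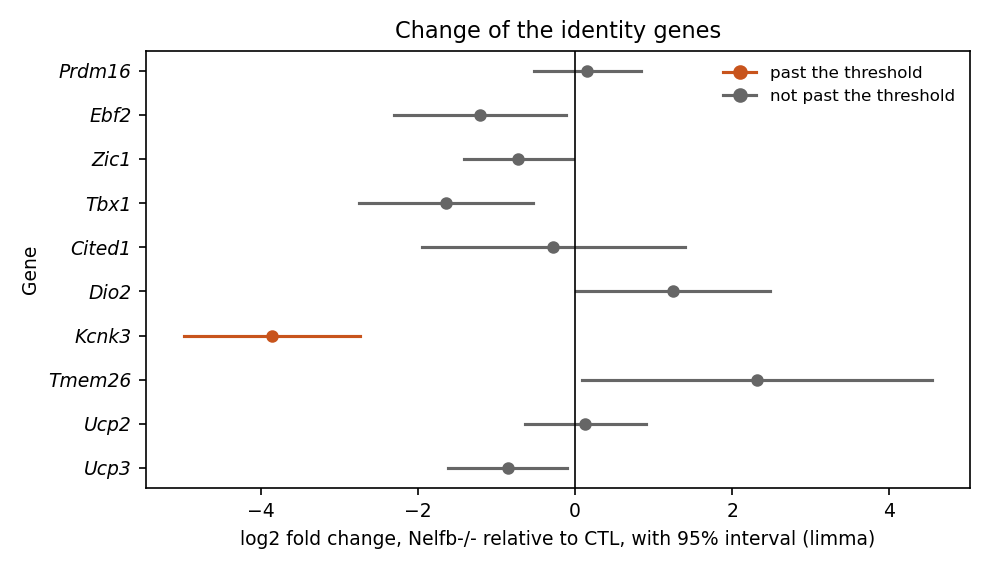
The plot shows the log2FC of each identity gene, Nelfb-/- relative to CTL, with its 95% interval from limma. Kcnk3 at -3.86 is the 1 gene drawn as past the threshold, and the intervals of Prdm16, Cited1 and Ucp2 include 0.

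Kcnk3 encodes TASK-1, a two-pore potassium channel of the plasma membrane that is used as a marker of brown and beige adipocytes (ENSMUSG00000049265, GRCm38 chromosome 5 from 30588170 to 30625271, plus strand). Kcnk3 stood at 191, 216 and 68.6 CPM in the CTL libraries and at 6.83, 12.3 and 10.8 CPM in the Nelfb-/- libraries. All Nelfb-/- libraries lay far below all CTL libraries, and CTL replicate 3 was the lowest of its group. The mean was 158.5 ± 78.8 CPM in the CTL libraries and 9.98 ± 2.84 CPM in the Nelfb-/- libraries (SD, n = 3 each), and its log2FC was -3.86 (SE 0.47, 95% interval -4.99 to -2.74, limma with Benjamini-Hochberg adjustment, adjusted p = 0.0061; exact permutation p = 0.1). With CTL replicate 3 left out its log2FC became -4.38, and with Nelfb-/- replicate 1 left out -3.61 (limma adjusted p of 0.0034 and 0.015). Gm9899, a transcript on the opposite strand whose span overlaps the start of Kcnk3, stood at 4.27, 6.17 and 2.47 CPM in the CTL libraries and at 0, 0.118 and 0.0833 CPM in the Nelfb-/- libraries, at most 3 reads in each of the latter (limma adjusted p = 0.0057). Whether reads were counted by strand was not given, so that reads of the overlap cannot be assigned to one of the 2 genes.

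Across the 6 libraries, the genes whose log2 levels were most like those of Kcnk3 were Kcns3, a modifier subunit of voltage-gated potassium channels (Pearson r = 0.999), Itih5, an extracellular matrix protein (r = 0.998), and P2rx5, a purinergic receptor channel and brown adipocyte surface marker (r = 0.997). The 6 libraries are the same ones in which Kcnk3 differs by genotype, so that any gene with a like difference scores high. P2rx5 stood at 9.11, 10.8 and 6.63 CPM in the CTL libraries and at 2.32, 2.91 and 2.90 CPM in the Nelfb-/- libraries, with a log2FC of -1.67 (SE 0.26, limma adjusted p = 0.011). Of 4 other two-pore channels tested, 0 were lower past the threshold and 2 were higher: Kcnk6, at 2.57 to 5.03 CPM in the CTL libraries and 11.7 to 18.3 CPM in the Nelfb-/- libraries (log2FC 2.09), and Kcnk13, at 0.884 to 2.84 CPM and 8.91 to 26.9 CPM (3.18). Kcnk2, which encodes TREK-1, stood at 3.43 to 6.72 CPM in the CTL libraries and 1.07 to 2.48 CPM in the Nelfb-/- libraries and did not pass (limma adjusted p = 0.055). The 2 calls were lost without Nelfb-/- replicate 3 (limma adjusted p of 0.059 and 0.065), and that of Kcnk13 also without CTL replicate 2, while Kcnk2 passed as well without CTL replicate 3. Kcnk13 was highest in Nelfb-/- replicate 1, the library in which the summed level of 12 macrophage markers was also highest, at 7206 CPM against 226 to 835 CPM in CTL. Of those 12 markers 11 were past the threshold, all higher (3 without CTL replicate 2 or without Nelfb-/- replicate 3), and their part in the result was not tested.

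The regulators that set brown identity did not pass the threshold. PRDM16 is a zinc finger coregulator that directs precursors toward brown and beige fat (ENSMUSG00000039410, chromosome 4 from 154316125 to 154636873, minus strand). Prdm16 stood at 8.52, 6.77 and 8.94 CPM in the CTL libraries and at 7.82, 13.0 and 7.02 CPM in the Nelfb-/- libraries. The groups overlapped, and Nelfb-/- replicate 2 was the highest library. Its log2FC was 0.16 (SE 0.28, 95% interval -0.52 to 0.83, limma adjusted p = 0.74), and without Nelfb-/- replicate 2 it was -0.11. It was 0.24 without CTL replicate 3 and 0.25 without Nelfb-/- replicate 1. The interval holds levels in Nelfb-/- cells from 0.698 to 1.78 times that of CTL.

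EBF2 is a helix-loop-helix factor that marks brown and beige precursors and recruits PPARG to brown genes (ENSMUSG00000022053, chromosome 14 from 67233292 to 67430918, plus strand). Ebf2 stood at 20.9, 11.9 and 19.2 CPM in the CTL libraries and at 3.84, 12.6 and 7.87 CPM in the Nelfb-/- libraries. Of the Nelfb-/- libraries, replicate 2 lay just above the lowest CTL library and the other 2 lay below all of CTL. Its log2FC was -1.21 (SE 0.46, 95% interval -2.30 to -0.12, limma adjusted p = 0.12), and it was -1.12 without CTL replicate 3 and -0.76 without Nelfb-/- replicate 1.

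ZIC1 is a zinc finger factor of the dorsal embryo that marks classical brown rather than beige fat (ENSMUSG00000032368, chromosome 9 from 91358058 to 91365810, minus strand). Its level was 11.1, 19.3 and 22.5 CPM in the CTL libraries and 9.20, 11.6 and 10.04 CPM in the Nelfb-/- libraries. CTL replicate 1 fell among the Nelfb-/- libraries, and the other 2 CTL libraries lay above all of them. Its log2FC was -0.72 (SE 0.29, 95% interval -1.41 to -0.03, limma adjusted p = 0.14), and it was -0.52 without CTL replicate 3 and -0.65 without Nelfb-/- replicate 1. Zic4, whose span overlaps that of Zic1 on the opposite strand, stood at 1.73, 3.21 and 2.41 CPM in the CTL libraries and at 0.569, 1.48 and 1.31 CPM in the Nelfb-/- libraries, all below CTL without passing (log2FC -1.17, limma adjusted p = 0.13).

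TBX1 is a T-box factor used as a marker of beige adipocytes (ENSMUSG00000009097, chromosome 16 from 18580979 to 18590671, minus strand). Tbx1 stood at 9.65, 3.55 and 5.17 CPM in the CTL libraries and at 2.61, 1.16 and 1.80 CPM in the Nelfb-/- libraries, from 20 to 55 reads in the latter. All Nelfb-/- libraries lay below all CTL libraries, and CTL replicate 1 was the highest of its group. A log2FC of -1.65 (SE 0.46, 95% interval -2.76 to -0.54) missed the threshold (limma adjusted p = 0.059; exact permutation p = 0.1), and without Nelfb-/- replicate 1 it was -1.92 and past it (limma adjusted p = 0.049). The value was -1.71 when CTL replicate 3 was left out. Of 7 other T-box genes tested, 0 passed, 3 had a negative and 4 a positive log2FC, and Tbx15, a marker of subcutaneous depots, lay at 83.3 to 133 CPM in the CTL libraries and 86.8 to 176 CPM in the Nelfb-/- libraries. At an unadjusted p under 0.05, 1 of these 7 counted, Tbx18, with a change short of 2-fold (log2FC 0.81, limma adjusted p = 0.032). Without CTL replicate 3, 1 of them, Tbx6, was past the threshold.

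CITED1 is a coregulator used as a beige marker (ENSMUSG00000051159, chromosome X from 102247381 to 102252181, minus strand), and it was near the limit of what the depth could show, with 11 to 85 reads in a library. Cited1 stood at 0.767, 0.653 and 2.89 CPM in the CTL libraries and at 1.33, 1.34 and 0.449 CPM in the Nelfb-/- libraries. CTL replicate 3 was the highest and Nelfb-/- replicate 3 the lowest library, and the other 4 lay between them. Its log2FC was -0.28 (SE 0.70, 95% interval -1.95 to 1.40, limma adjusted p = 0.82), and was 0.38 without CTL replicate 3 and 0.22 without Nelfb-/- replicate 3. Without Nelfb-/- replicate 1 it was -0.52.

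Dio2, which encodes the deiodinase that turns thyroxine into active thyroid hormone, leaned the other way (ENSMUSG00000007682, chromosome 12 from 90724552 to 90738438, minus strand). Dio2 is known as a gene induced by cyclic AMP, and its promoter is shown here because it holds the cyclic AMP response element. The sequence is the 250 bases before the start in the RefSeq annotation of GRCm38.p6, chr12:90739039-90739288 on the minus strand, upstream of the span listed for the gene, with the response element (TGACGTCA) and a TATA box (TATAAA) in capitals.
Dio2: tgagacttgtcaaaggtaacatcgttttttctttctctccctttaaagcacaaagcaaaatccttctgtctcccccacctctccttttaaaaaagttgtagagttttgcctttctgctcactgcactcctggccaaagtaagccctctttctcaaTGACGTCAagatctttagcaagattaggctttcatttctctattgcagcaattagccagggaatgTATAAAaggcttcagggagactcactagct
The last base of the response element lies 88 bases before the start. TGACGTCA reads the same on both strands and was found in 1.55% of 32851 promoter windows of this length, and TATAAA on either strand in 12.4%. Of the 11 windows matched to 8 of the identity genes, only this one held the response element, which describes the letters of the window and not binding. Kcnk3 and Ebf2 had no matched window.

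Dio2 stood at 1.08, 0.793 and 2.14 CPM in the CTL libraries and at 1.66, 3.78 and 4.20 CPM in the Nelfb-/- libraries, from 17 to 103 reads. CTL replicate 3 lay above Nelfb-/- replicate 1, and apart from that pair the Nelfb-/- libraries were higher. Its log2FC was 1.25 (SE 0.51, 95% interval 0.02 to 2.48, limma adjusted p = 0.15), and it was 1.64 without CTL replicate 3, 1.66 without Nelfb-/- replicate 1 and 0.95 without CTL replicate 2. In the list of thyroid hormone genes, 1 of 11 tested was higher past the threshold. Dio3, the deiodinase that inactivates thyroid hormone, stood at 0.271, 0.0933 and 0.136 CPM in the CTL libraries and at 1.66, 8.50 and 3.55 CPM in the Nelfb-/- libraries, and rose with a log2FC of 4.23 (SE 0.66, limma adjusted p = 0.012). With Nelfb-/- replicate 3 left out, Dio3 no longer passed (limma adjusted p = 0.062). The receptors Thra and Thrb did not pass. Without CTL replicate 3, Thrb passed together with Klf9, a target of the receptors, and the corepressor Ncor1, and Klf9 also passed without Nelfb-/- replicate 1.

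TMEM26 is a membrane protein used as a surface marker of beige adipocytes (ENSMUSG00000060044, chromosome 10 from 68723646 to 68782650, plus strand). Tmem26 stood at 0.586, 0.187 and 1.496 CPM in the CTL libraries and at 0.948, 6.64 and 4.16 CPM in the Nelfb-/- libraries, which is 13, 4 and 44 reads and 20, 114 and 102 reads. Nelfb-/- replicates 2 and 3 lay above all other libraries, while Nelfb-/- replicate 1 lay below CTL replicate 3. Its log2FC was 2.32 (SE 0.93, 95% interval 0.09 to 4.55, limma adjusted p = 0.14), and it was 2.99 without CTL replicate 3 and 3.12 without Nelfb-/- replicate 1. Left out instead, CTL replicate 2 gave 1.62 and Nelfb-/- replicate 2 gave 1.75. Dio2 and Tmem26 both had Nelfb-/- replicates 2 and 3 as their highest libraries, replicate 3 first for Dio2 and replicate 2 first for Tmem26, and then in the same order CTL replicate 3, Nelfb-/- replicate 1, CTL replicate 1 and CTL replicate 2. The summed level of 12 fibroblast and preadipocyte markers was 3580, 3135 and 12281 CPM in the CTL libraries and 6780, 24567 and 26194 CPM in the Nelfb-/- libraries, with the same 3 libraries highest. Of the 11 of these markers tested, 2 were higher past the threshold (Dlk1 and Dpp4, both lost without CTL replicate 1, Nelfb-/- replicate 2 or Nelfb-/- replicate 3, against 7 without CTL replicate 3), and none of the 12 was at 0 throughout a group. Their part in the levels of Dio2 and Tmem26 was not tested.

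The gene of the uncoupling protein of brown fat was absent from the listed genes and was not analysed here. Ucp2 and Ucp3 encode related carriers of the inner mitochondrial membrane. They lie head to tail on the plus strand of chromosome 7, with Ucp3 (ENSMUSG00000032942) from 100472990 to 100486432 and Ucp2 (ENSMUSG00000033685) from 100493337 to 100502020, and 6904 bases between them. Their promoters are shown because these neighbours of 1 family ordered the 6 libraries differently. Each sequence is the 250 bases before the start in the RefSeq annotation of GRCm38.p6, chr7:100472741-100472990 for Ucp3 and chr7:100493108-100493357 for Ucp2, both on the plus strand, with a GC box (GGGCGG, or CCGCCC for a site on the minus strand) in capitals.
Ucp3: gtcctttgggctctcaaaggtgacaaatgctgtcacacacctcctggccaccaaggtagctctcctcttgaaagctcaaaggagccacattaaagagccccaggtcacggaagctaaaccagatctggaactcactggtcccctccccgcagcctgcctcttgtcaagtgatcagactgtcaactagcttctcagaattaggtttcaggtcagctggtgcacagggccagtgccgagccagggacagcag
Ucp2: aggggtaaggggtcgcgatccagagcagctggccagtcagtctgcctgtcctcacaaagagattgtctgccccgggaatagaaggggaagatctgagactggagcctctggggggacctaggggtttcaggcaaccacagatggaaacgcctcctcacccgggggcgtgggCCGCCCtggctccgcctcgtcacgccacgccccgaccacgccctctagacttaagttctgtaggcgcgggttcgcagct
The Ucp2 window held 1 GC box on the minus strand, its last base 74 bases before the start, and 63.6% of its bases were G or C. In the Ucp3 window no GC box, TATA box or cyclic AMP response element was found, and 54.8% of its bases were G or C, against a median of 52.4% in all promoter windows. A GC box on either strand was found in 32.7% of the 32851 windows. No motif found overlapped another.

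Ucp3 stood at 10.7, 13.8 and 6.36 CPM in the CTL libraries and at 5.83, 5.88 and 4.57 CPM in the Nelfb-/- libraries. All Nelfb-/- libraries lay below all CTL libraries, though Nelfb-/- replicates 1 and 2 lay close below CTL replicate 3. Its log2FC was -0.86 (SE 0.32, 95% interval -1.62 to -0.10, limma adjusted p = 0.12; exact permutation p = 0.1), and without CTL replicate 3 it was -1.17 and past the threshold (limma adjusted p = 0.021). Without Nelfb-/- replicate 1 it was -0.91. Gm10603, which overlaps the start of Ucp3 on the opposite strand, stood at 1.33 to 1.47 CPM in the CTL libraries and 1.38 to 2.59 CPM in the Nelfb-/- libraries.

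Ucp2 stood at 151, 144 and 114 CPM in the CTL libraries and at 235, 98.3 and 141 CPM in the Nelfb-/- libraries. Nelfb-/- replicate 1 was the highest and Nelfb-/- replicate 2 the lowest library, with CTL between them. Its log2FC was 0.13 (SE 0.32, 95% interval -0.64 to 0.90, limma adjusted p = 0.81), and it was 0.0070 without CTL replicate 3 and -0.20 without Nelfb-/- replicate 1. Dnajb13, which overlaps the end of Ucp2 on the opposite strand, stood at 0.0903 to 0.327 CPM in the CTL libraries and 0.490 to 1.04 CPM in the Nelfb-/- libraries. UCP2 is known to be abundant in macrophages. The summed macrophage markers ordered the libraries within each genotype as Ucp2 did, at 835, 427 and 226 CPM in the CTL libraries and at 7206, 2290 and 3927 CPM in the Nelfb-/- libraries, but not between genotypes, since CTL replicate 1, with 835 CPM of these markers, held more Ucp2 than Nelfb-/- replicate 3, with 3927 CPM. None of the 12 markers was at 0 throughout a group, and their part in the level of Ucp2 was not tested. Of 5 other carriers related to uncoupling, 0 were past the threshold by limma (1 without CTL replicate 1), 2 had an unadjusted p under 0.05, and Slc25a5, an ADP/ATP carrier, stood at 330 to 456 CPM in the CTL libraries and 195 to 209 CPM in the Nelfb-/- libraries with a change short of 2-fold (log2FC -0.93, limma adjusted p = 0.016). The other of these 2 was Slc25a30, a mitochondrial carrier of the same family, at 22.6 to 32.3 CPM in the CTL libraries and 45.4 to 94.9 CPM in the Nelfb-/- libraries, higher in all of the latter without passing (log2FC 1.10, SE 0.31, limma adjusted p = 0.058).

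**Figure D3:**
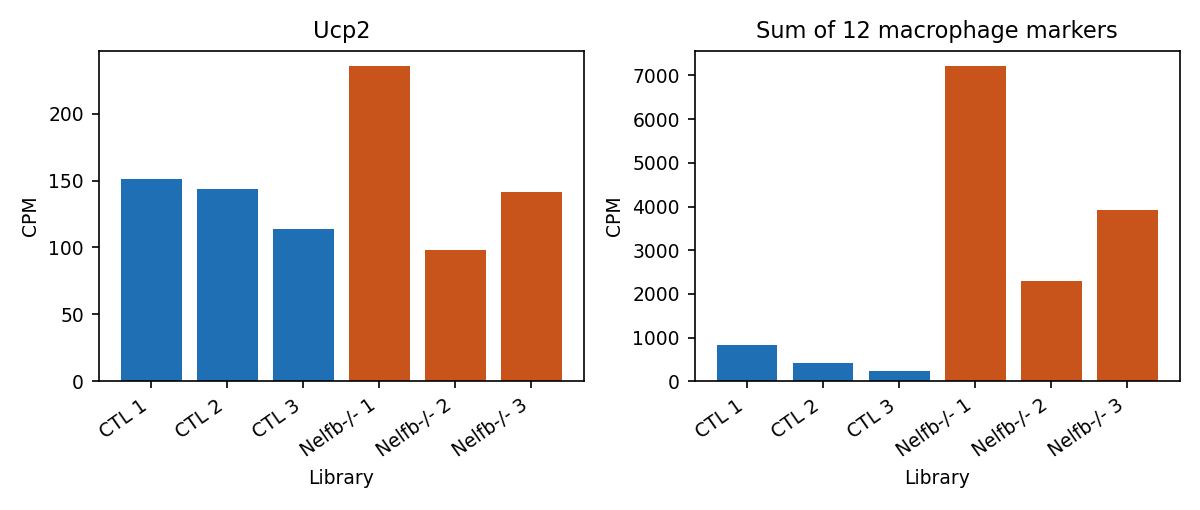
The left bars give the level of Ucp2 and the right bars the summed level of 12 macrophage markers in each library, both in CPM from 0. Nelfb-/- replicate 1 is the highest library in both, at 235 and 7206 CPM, and the macrophage sum is higher in each Nelfb-/- library than in any CTL library while Ucp2 is not.

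Levels can be compared between genes only per length, for which CPM was divided by the bases of all annotated exons of a gene. In CTL cells Kcnk3 had the highest mean of the 10 genes, at 39.9 ± 19.8 CPM per kb (SD, n = 3), followed by Ucp2 at 19.5 ± 2.84, Ucp3 at 3.29 ± 1.195, Zic1 at 3.10 ± 1.03, Ebf2 at 2.50 ± 0.69 and Tbx1 at 1.74 ± 0.90 CPM per kb. Below these lay Prdm16 at 0.867 ± 0.12, Cited1 at 0.819 ± 0.72, Dio2 at 0.230 ± 0.12 and Tmem26 at 0.143 ± 0.13 CPM per kb. Of the 9 pairs of neighbours in this order 6 had overlapping libraries, and the gaps lay between Ucp2 and Ucp3, between Tbx1 and Prdm16 and between Cited1 and Dio2. In Nelfb-/- cells Ucp2 came first at 22.6 ± 10.03 CPM per kb, apart from Kcnk3 at 2.51 ± 0.71. From Kcnk3 down to Tbx1, the lowest at 0.528 ± 0.21 CPM per kb, each neighbouring pair overlapped.

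The genes were also set against the RNA of the 10 mature adipocyte markers. The geometric mean of these markers was itself 2071, 2138 and 1024 CPM in the CTL libraries and 782, 1012 and 859 CPM in the Nelfb-/- libraries (log2 difference -0.91, exact permutation p = 0.1). It was lower in each Nelfb-/- library than in any CTL library, so that a gene can stand higher on this scale without standing higher in CPM. Of these 10 markers, 1 was lower past the threshold in limma (Adig; 4 without CTL replicate 3 and 0 without Nelfb-/- replicate 3) and 9 had a negative log2FC. Kcnk3 stood at 9.24%, 10.1% and 6.70% of that mean in CTL and at 0.879%, 1.22% and 1.26% in Nelfb-/- cells. The groups were still apart, with a log2 difference of -2.95 (exact permutation p = 0.1, the smallest possible). Dio2 stood at 0.0544%, 0.0392% and 0.213% in CTL and at 0.218%, 0.378% and 0.494% in Nelfb-/- cells, so that on this scale all its Nelfb-/- libraries lay above CTL, by a narrow margin at CTL replicate 3 (log2 difference 2.16, exact permutation p = 0.1). Tbx1 and Ucp3, whose groups were apart in CPM, overlapped on this scale, with log2 differences of -0.74 and 0.05, the latter of opposite sign to that in CPM. Ebf2 and Zic1 overlapped as well, at -0.30 and 0.19, so that Zic1 changed direction. Prdm16, Ucp2, Tmem26 and Cited1 overlapped with log2 differences of 1.07, 1.04, 3.23 and 0.64, and Cited1 too changed direction.

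**Figure D4:**
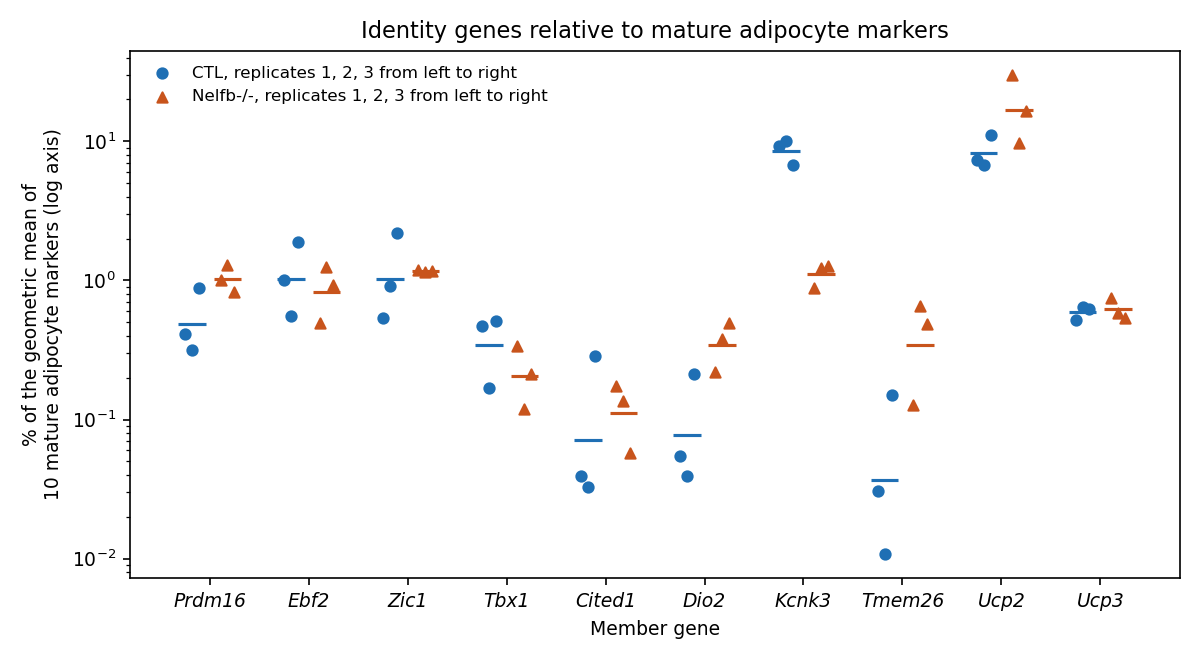
The plot shows each identity gene as a percentage of the geometric mean of 10 mature adipocyte markers in the same library, on a log axis, with CTL as circles, Nelfb-/- as triangles and lines at the geometric means. Kcnk3 (lower) and Dio2 (higher) are the 2 genes whose groups do not overlap, and Ucp3 lies between 0.520% and 0.752% in all 6 libraries.

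Genes that carry out thermogenesis were examined next to those that mark its identity. Of 20 thermogenic effectors listed, 19 were in the table and 18 were tested, and 8 were lower past the threshold and 0 higher, against 3.64% lower among all genes tested. The list's median log2FC was -1.17, with 16 of 18 negative and 14 of 18 with all Nelfb-/- libraries below CTL. The list was written after the study's own results had been read, and its counts are not independent evidence of a direction. The effectors were not set against the mature adipocyte markers, whose geometric mean had a log2 difference of -0.91. Whether they fell further than those markers was not tested. Without CTL replicate 1 or without Nelfb-/- replicate 3, 5 of the 8 were called. Cidea, Cox8b, Plin5, Cpt1b and Acot2 were past the threshold whichever library was left out, while Cox7a1, Slc25a20 and Sirt3 were lost without 1 or more of the libraries, with log2FC that stayed between -4.69 and -1.02. Cidea, a lipid droplet protein abundant in brown fat, stood at 11.0, 7.23 and 10.03 CPM in the CTL libraries and at 0, 0.0582 and 0.0408 CPM in the Nelfb-/- libraries, at most 1 read in each of the latter. It was at least 64.2-fold lower against a floor of 3 reads per library.

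The other 7 genes called in this list act in mitochondria or in the use of fatty acids. Cox8b, a subunit of cytochrome c oxidase specific to brown fat and muscle, stood at 7.04, 2.85 and 6.70 CPM in the CTL libraries and at 0.190, 0.116 and 0.245 CPM in the Nelfb-/- libraries (log2FC -4.54, SE 0.47, limma adjusted p = 0.0043). Cox7a1, another such subunit, lay at 7.51 to 37.1 CPM and 0.332 to 1.63 CPM (-4.18, SE 0.75). Plin5, which ties lipid droplets to mitochondria, lay at 57.6 to 73.6 CPM and 1.33 to 3.43 CPM (-4.76, SE 0.35). Cpt1b, the muscle and brown fat form of the enzyme that commits fatty acids to mitochondria, fell by 2.74 on the log2 scale (SE 0.37). Slc25a20, the acylcarnitine carrier, fell by 1.196, Acot2, a mitochondrial thioesterase, by 1.51, and Sirt3, a mitochondrial deacetylase, by 1.15. Elovl3, a fatty acid elongase induced by cold, stood at 25.7 to 42.6 CPM in the CTL libraries and 0.759 to 10.7 CPM in the Nelfb-/- libraries, and Otop1, a proton channel, at 1.96 to 31.0 CPM and 0.0948 to 0.757 CPM. Both had groups that did not overlap and missed the threshold (limma adjusted p = 0.087 and 0.073). Gk and Letmd1 had log2FCs of 0.15 and 0.13.

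**Figure D5:**
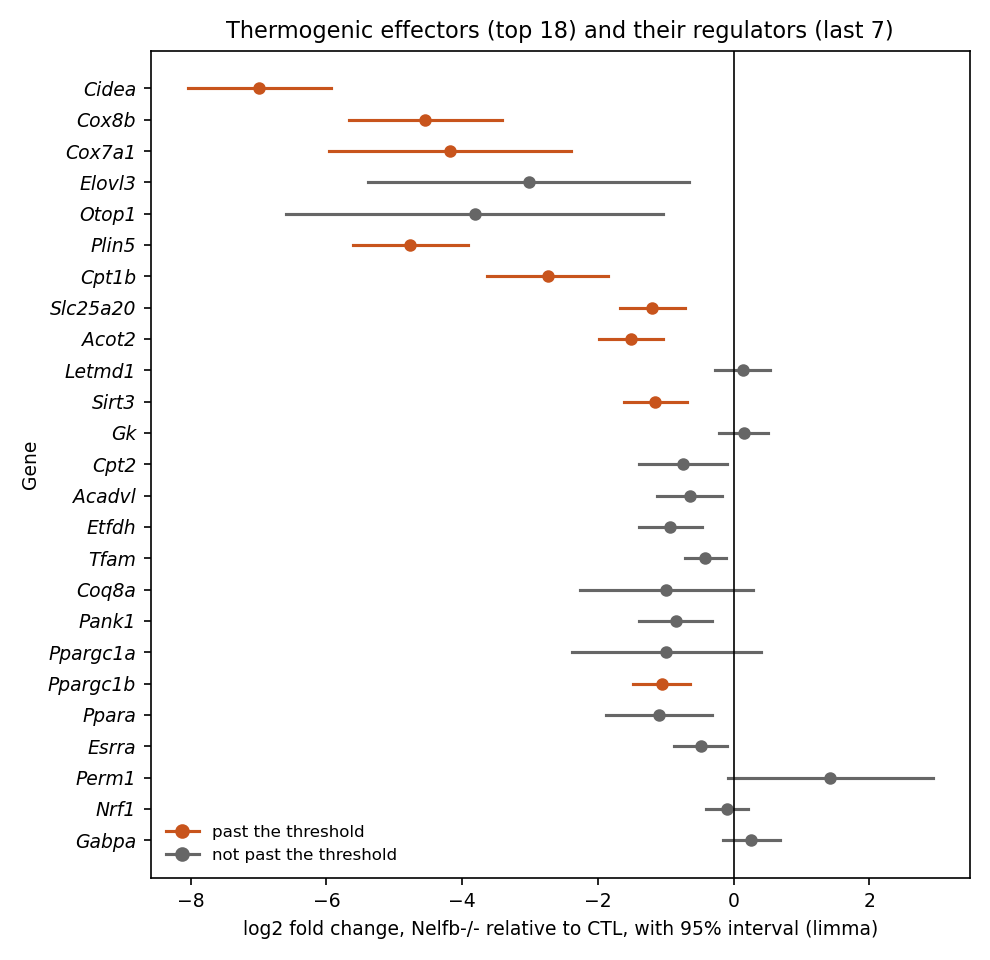
The plot shows log2FCs, Nelfb-/- relative to CTL, with 95% intervals from limma for the 18 thermogenic effectors tested (Cidea to Pank1) and 7 of their regulators (Ppargc1a to Gabpa). Of the effectors, 8 are drawn as past the threshold, all lower, and of the regulators 1, Ppargc1b. The value drawn for Cidea rests on libraries at or below 1 read and depends on the pseudocount.

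Among the PGC-1 and ERR regulators of these genes, 1 of 7 tested was past the threshold. Ppargc1b, a coactivator of mitochondrial genes, stood at 20.2, 19.2 and 23.6 CPM in the CTL libraries and at 9.01, 11.6 and 9.63 CPM in the Nelfb-/- libraries, and fell by 1.06 on the log2 scale (SE 0.17, limma adjusted p = 0.013), a call that was lost without any 1 of the libraries but Nelfb-/- replicate 2 (log2FC -1.16 to -0.97). Its relative Ppargc1a, the coactivator induced by cold, stood at 16.2, 8.82 and 4.93 CPM in the CTL libraries and at 9.10, 3.26 and 2.98 CPM in the Nelfb-/- libraries, with groups that overlapped (log2FC -0.99, SE 0.58, limma adjusted p = 0.29). Of the 27 partners and upstream regulators of PRDM16 and EBF2 that were tested, 0 passed by limma and 10 had an unadjusted p under 0.05, against 32.5% of all genes tested. Without Nelfb-/- replicate 1, 3 of the 27 passed (Irf4, Zbtb16 and Rbl1), and without CTL replicate 3, 2 did (Zbtb16 and Klf11). Irf4, a regulator of thermogenic genes in fat and also a factor of immune cells, had the largest difference of them, at 39.9, 42.7 and 11.4 CPM in the CTL libraries and at 24.7, 1.46 and 1.84 CPM in the Nelfb-/- libraries. Nelfb-/- replicate 1 lay above CTL replicate 3, and its log2FC was -2.71 (SE 1.13, limma adjusted p = 0.15). Zbtb16 lay at 298, 335 and 138 CPM in the CTL libraries and at 168, 56.1 and 59.4 CPM in the Nelfb-/- libraries, with the same 2 libraries crossing.

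Other surface and lineage markers of brown and beige fat were called in both directions. Of 14 tested, 2 were lower past the threshold (P2rx5 and Mpzl2) and 2 higher (Sp100 and Epsti1), with a median of 0.33. In place of these 4, 8 passed without CTL replicate 3 and 2 without CTL replicate 1 or without Nelfb-/- replicate 3. Mpzl2, an adhesion protein, stood at 7.66, 4.90 and 4.83 CPM in the CTL libraries and at 0.332, 0.157 and 0.163 CPM in the Nelfb-/- libraries (log2FC -4.51, SE 0.40, limma adjusted p = 0.0035). Sp100 and Epsti1, which have been used as beige markers and are also interferon-induced genes, rose by 1.80 and 3.95 on the log2 scale. Mpzl2 and Epsti1 stayed past the threshold whichever library was left out. The calls of P2rx5 and Sp100 were lost without 3 and 4 of the 6 libraries, CTL replicate 1 and Nelfb-/- replicate 3 in both, with log2FC of -1.86 to -1.51 and 1.29 to 2.14. Slc36a2, an amino acid transporter of brown fat, lay at 53.0 to 149 CPM in the CTL libraries and 34.0 to 39.6 CPM in the Nelfb-/- libraries and lay just short of the threshold (limma adjusted p = 0.051), which it passed without CTL replicate 3 and by a narrow margin with a pseudocount of 5 reads, with either other filter on low values or with medians of ratios. Among 13 tested relatives of Zic1, Cited1 and Prdm16, 1 was past the threshold, Prdm8, which rose by 2.03 and kept its call without CTL replicate 3 and lost it without each of the other libraries (log2FC 1.60 to 2.45). Of the 13, 2 passed without CTL replicate 3 (Prdm8 and Prdm1) and 2 without Nelfb-/- replicate 1 (Cited4 and Prdm9).

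White adipocyte markers were called in both directions too. Of 11 tested, 3 were lower past the threshold (Retn, Agt and Nrg4) and 1 higher. The latter was Lep, which encodes leptin, at 0.180, 0.373 and 2.04 CPM in the CTL libraries and 10.3, 32.4 and 33.0 CPM in the Nelfb-/- libraries (log2FC 5.26, SE 0.88, limma adjusted p = 0.014). Retn, which encodes resistin, lay at 206 to 470 CPM and 64.6 to 103 CPM (-2.12). Nrg4, a secreted factor listed here with white markers although brown fat also makes it, lay at 8.15 to 16.5 CPM and 2.11 to 6.37 CPM (-1.99). These calls were lost without 1 or more libraries, Nelfb-/- replicate 3 for each of the 4, with log2FC of 4.58 to 6.19 for Lep and -2.50 to -1.71 for the others. Without Nelfb-/- replicate 3 none of the 11 passed, and without CTL replicate 3, 6 did.

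In the beta-adrenergic pathway 2 of 17 genes tested were lower past the threshold and 1 higher. The phosphodiesterases Pde3b and Pde4d, which break down cyclic AMP, fell by 1.37 and 1.45 on the log2 scale, and the adenylyl cyclase Adcy3, which makes it, rose by 1.003. These 3 calls were each lost without any 1 of 3 to 5 libraries, CTL replicates 1 and 2 and Nelfb-/- replicate 3 among them, and the log2FC then lay at -1.72 to -1.02 for the phosphodiesterases and 0.76 to 1.17 for Adcy3. Pde3b stood at 647, 794 and 525 CPM in the CTL libraries and at 182, 325 and 266 CPM in the Nelfb-/- libraries. The receptors Adrb1 and Adrb3 did not pass. In futile cycles, which spend energy without an uncoupling protein, 0 of 7 were lower past the threshold and 2 were higher. Gatm, the first enzyme of creatine synthesis, lay at 0.374 to 0.676 CPM in the CTL libraries and 4.22 to 5.51 CPM in the Nelfb-/- libraries (log2FC 3.18), and Atp2a1, the calcium pump of fast skeletal muscle, at 0.795 to 1.26 CPM and 4.17 to 11.5 CPM (2.62). Gatm stayed past the threshold whichever library was left out, and Atp2a1 was lost without CTL replicate 2 or Nelfb-/- replicate 3 (limma adjusted p of up to 0.059). Skeletal muscle markers moved with Atp2a1, since 5 of 6 tested were higher past the threshold (3 without Nelfb-/- replicate 3) and the sum of the 8 measured lay at 9.89 to 12.7 CPM in the CTL libraries and 43.1 to 72.0 CPM in the Nelfb-/- libraries. None of these 8 was at 0 throughout a group, and their part in the result was not tested.

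Markers of other cell types were measured beside the identity genes. Of 7 melanocyte and Schwann cell markers tested, 7 were higher past the threshold, with sums of 16.9 to 19.1 CPM in the CTL libraries and 124 to 155 CPM in the Nelfb-/- libraries, and 1 of them, Tyr, was at 0 in all CTL libraries. Their median log2FC was 4.31, or 3.03 with genes under the floor at their bound. Among keratinocyte markers 1 of 3 (Krt14) and among endothelial markers 1 of 5 (Emcn) were higher past the threshold, calls lost without CTL replicate 2, Nelfb-/- replicate 2 or Nelfb-/- replicate 3 among others, and among smooth muscle and pericyte markers 0 of 6 passed by limma (1 without CTL replicate 3 or without Nelfb-/- replicate 1) with 2 at an unadjusted p under 0.05. The endothelial count was 2 without CTL replicate 3, and the keratinocyte count 2 without Nelfb-/- replicate 1. The sums of these 3 lists lay at 1.89 to 2.45, 7.24 to 10.5 and 891 to 1293 CPM in the CTL libraries and at 3.46 to 12.8, 8.09 to 22.0 and 576 to 1517 CPM in the Nelfb-/- libraries. Their part in the levels of the identity genes was not tested.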

How the data were processed

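RNA-seq values of 6 libraries were analysed here, 3 of CTL and 3 of Nelfb-/- cells, grouped by the genotype in the labels. The authors deposited CPM values, with an offset of 0.0001 added, made from reads aligned to mm10. The submitters' processing notes name STAR 2.7 and Partek 9.0.20.0202. The counting and its use of strand are not given in the sources used here. The CPM of 1 read was found from the lowest values of each library and gave its depth, and 69.4% to 72.0% of values up to 20 reads were whole multiples (within 0.02 reads), so that no count test was run. After the offset was taken off, CPM was brought to reads at 1 depth, 22.3 M (M, 1e+06). Of the listed genes, 16252 averaged 10 reads or more (0.448 CPM). These entered limma (version 3.58.1 in R 4.3.3), fitted to log2(reads + 1) with a variance trend, with Benjamini-Hochberg adjustment over all of them. The script was tested on simulated data.

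The 10 identity genes and all gene lists were chosen with earlier results of these data known. Genes are named if they are identity genes, Nelfb, genes overlapping or within 5 kb of an identity gene, list genes past the threshold, up to 4 other list genes with the largest change, or the 3 genes most like an identity gene past the threshold. Gk, Letmd1, Thra, Thrb and Adrb3, which that rule does not cover, were named after their values were seen. Some genes of the lists are not reported here. Ensembl IDs come from GENCODE vM21, in which 99.0% of 17520 matched genes had the start and end of the deposited table, and promoter sequences come from RefSeq (GRCm38.p6), for 8 of 10 genes. Alternatives tried were other pseudocounts, other filters on low values, medians of ratios scaling, a replicate block, no variance trend, a fit gene by gene and leaving out each library.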

Additional observations from a re-analysis of the deposited data

How the results depend on the processing

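Kcnk3 stayed lower and past the threshold in all 14 alternatives, with log2 fold changes between -4.38 and -3.56 and limma adjusted p between 0.0034 and 0.046. Leaving out each library in turn gave log2 fold changes of -1.98 to -1.26 for Tbx1, -1.17 to -0.61 for Ucp3, -0.11 to 0.33 for Prdm16, -1.60 to -0.76 for Ebf2, -1.02 to -0.52 for Zic1, 0.95 to 1.66 for Dio2, 1.62 to 3.12 for Tmem26, -0.66 to 0.38 for Cited1 and -0.20 to 0.43 for Ucp2. It gave 426 to 2479 genes past the threshold, 1 to 2 identity genes, 8 to 43 genes of the lists of pathways and markers against 27, and 5 to 9 thermogenic effectors against 8. Of these counts, 426 genes and 8 list genes came without Nelfb-/- replicate 3 and 2479 and 43 without CTL replicate 3, and leaving out CTL replicates 1 or 2 or Nelfb-/- replicate 2 gave 871, 758 and 945 genes. Of the 27 list genes, 8 were called in all 6 of these fits. A fit gene by gene without moderation called 684 genes and 12 list genes, in place of 1824 and 27. The replicate numbers shared by the labels did not pair the libraries, since same-numbered deviations correlated at 0.515, -0.395 and 0.518. With the replicate block 2175 genes passed and 2 identity genes, Kcnk3 and Tbx1 (-1.65, limma, adjusted p = 0.018). The block also gave 1 call among the partners of PRDM16 and EBF2 and 1 among the T-box genes, in place of 0 each, and 7 other brown and beige markers in place of 4. Scaling by medians of ratios moved the median of all genes from 0.07 to -0.0015 and changed no direction of an identity gene. Cited1 and Tmem26, with as few as 11 and 4 reads, are the genes that depth limits most.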
